A study of Mus musculus with 6 samples.

Results

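Complex I, the NADH:ubiquinone oxidoreductase, is the first and largest enzyme of the mitochondrial respiratory chain. This account follows the mRNAs of its nuclear-encoded subunits in cultured mouse fat precursors given a medium meant to induce beige adipocytes. The members are the gene lines whose symbol is Nduf followed by a, b, c, s, v or ab and a number, which gave 37 of the 45808 gene lines in the table. The choice rested on the symbol alone and used no measured value. All 37 passed the filter on low counts, which kept 14459 genes in all.

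The cells were the stromal-vascular fraction of inguinal white fat, the part of the tissue left after the mature fat cells are removed, from wild-type male mice aged 8 weeks. Day 0 was the confluent culture before any inducer. Day 2 came after 2 days with IBMX (0.5 mM), dexamethasone (5 µM), indomethacin (125 µM), insulin (850 nM), T3 (1 nM) and rosiglitazone (1 µM), and day 6 after a further spell in which only insulin, T3 and rosiglitazone were kept, at the same doses. Each day had 2 libraries, numbered 76 and 77, which the submitters call biological replicates. No label says whether a number stands for a mouse or a culture, so p-values here speak only of the spread among libraries, which may be technical. The series' title also names Naa10p and Pgc1-alpha, but all 6 libraries are labelled wild-type and none alters either gene by its label.

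Complex I takes electrons from NADH, passes them along a chain of iron-sulphur clusters to ubiquinone, and uses the energy to pump protons across the inner membrane. Its N module binds NADH, its Q module reduces ubiquinone, and its membrane arm, built from modules named after the mitochondrially encoded subunits ND1, ND2, ND4 and ND5, moves the protons. A small set of core subunits is shared with the bacterial enzyme, and the remaining, supernumerary, subunits surround them. Brown and beige fat cells are rich in mitochondria, and the chain feeds the proton gradient that uncoupling protein 1 dissipates as heat.

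Libraries held 22522221 to 29458374 counts in genes, and the members together took 0.166% and 0.169% of them at day 0, 0.322% and 0.302% at day 2, then 0.790% and 0.686% at day 6 (replicates 76 and 77 in that order throughout). Adipocyte identity was clear by day 6: Adipoq, the fat-cell hormone adiponectin, averaged 11.8 ± 1.99, 92.2 ± 10.1 and 2167 ± 192 CPM (SD, n = 2) on the 3 days. The defining beige marker was nearly absent: Ucp1, uncoupling protein 1, had 0 and 0 counts at day 0, 13 and 10 at day 2, then 1 and 0 at day 6. Cidea, another marker of thermogenic fat, had counts only at day 6, 21 and 6. In bulk RNA of this kind, more cells of a type and more RNA per cell cannot be told apart.

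Every member was higher at day 6 than at day 0, and most were already higher at day 2. As CPM, which corrects counts for library size (here by edgeR's TMM factors), the 37 members summed to 1615 and 1626 at day 0, 2880 and 2718 at day 2, then 9309 and 7707 at day 6. Neither step overlapped between its days. By edgeR's quasi-likelihood test, 34 of 37 members were higher at day 2 than at day 0 (33.6% of all genes tested were), 37 of 37 at day 6 than at day 0 (35.9% of all genes), and 36 of 37 at day 6 than at day 2 (38.2% of all genes). No member had a fold change below 1 in any of the 3 comparisons, by edgeR. Against a null of a change within 1.5-fold, 19 members were higher at day 2 (16.0% of all genes), 37 at day 6 against day 0 (21.9%) and 36 at day 6 against day 2 (21.8%).

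The median member rose 1.78-fold by day 2 and 5.27-fold by day 6 (log2 0.83 and 2.40), while the median of all genes tested moved by 0.00 and -0.01 on the log2 scale. All 37 differed between some of the days by the joint F test, as did 84.8% of all genes. Both libraries of day 2 lay above both of day 0 for 36 members (43.2% of all genes), and both of day 6 above both of day 0 for 37 (43.1%). Day 6 lay wholly above day 2 for 37 members as well (47.0% of all genes).

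**Figure D1:**
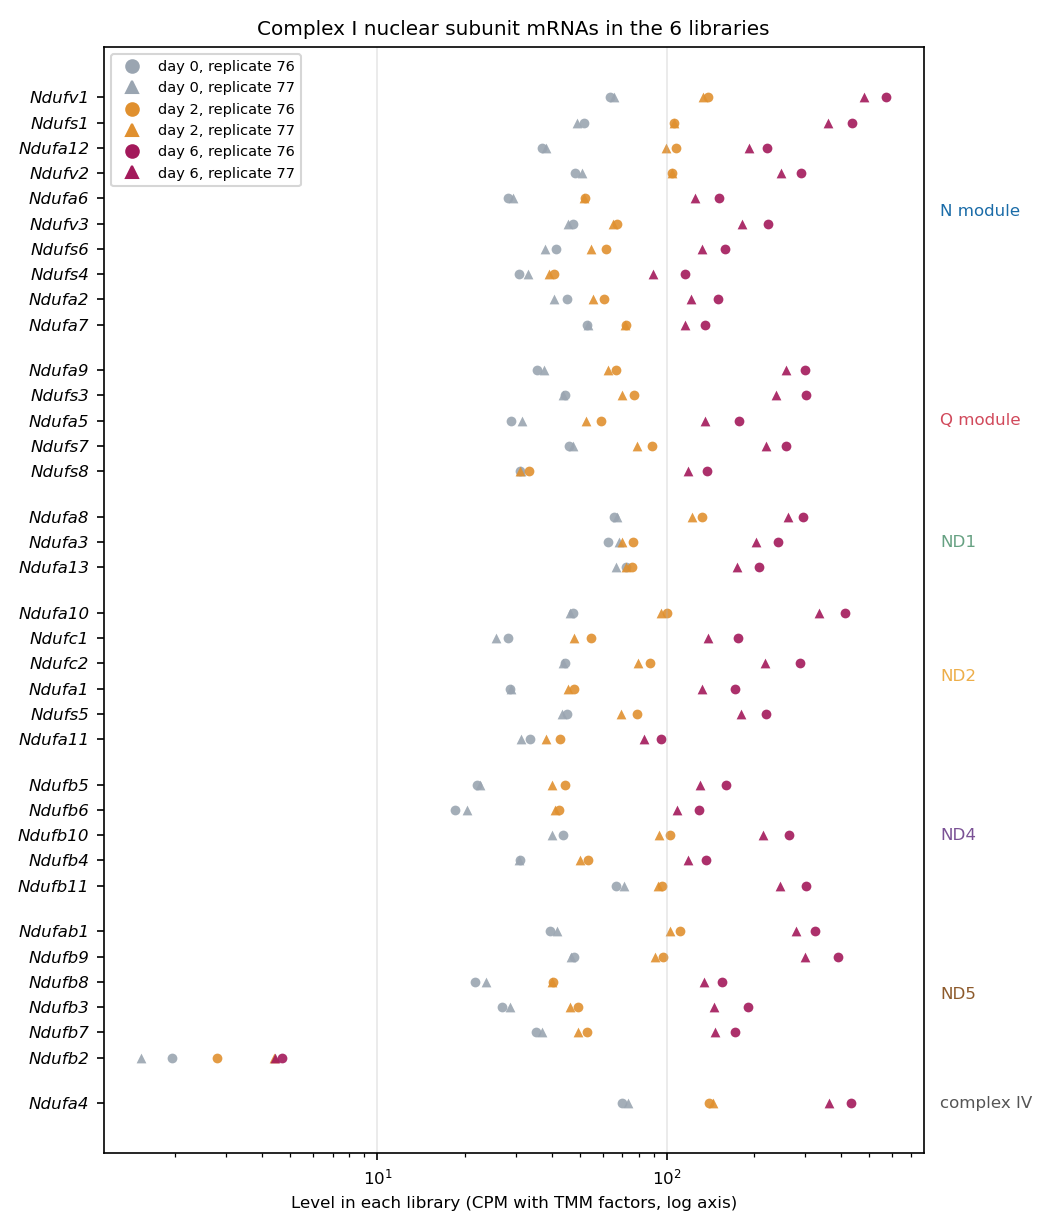
Level of 36 of the members in each library, in CPM with TMM factors on a log axis, grouped by module and ordered within a module by the change from day 0 to day 6; circles are replicate 76 and triangles replicate 77. For each member drawn both day 6 libraries lie to the right of both day 0 libraries, and at day 6 the circle lies right of the triangle.

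The N module, where NADH is oxidised, held the member that changed most and the one that changed least. Ndufv1, which carries the flavin that accepts electrons from NADH, had 63.7 and 65.9 CPM at day 0, 139.0 and 133.5 at day 2, then 573.9 and 478.9 at day 6. The 3 days were fully separate, and the rise over the course was 8.13-fold (log2 3.02, SE 0.10; edgeR adjusted p = 9.07e-08). Ndufs1, the large subunit that holds several of the iron-sulphur clusters, went from 51.5 and 48.8 to 106 and 105.7 and then 437.4 and 360.4 CPM, a rise of 7.95-fold (log2 2.99, SE 0.11). Their core partner Ndufv2, which carries a cluster beside the flavin, rose less: 48.0 and 51.0, then 104.3 and 104, then 291.8 and 248.7 CPM, 5.46-fold in all (log2 2.45, SE 0.09).

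At the other end stood Ndufa7, a supernumerary subunit of the same module. Its levels were 52.9 and 53.3 CPM at day 0, 72.4 and 71.4 at day 2, then 135.1 and 115.3 at day 6. The days did not overlap, and the rise of 2.36-fold (log2 1.24, SE 0.08; edgeR adjusted p = 3.94e-06) was the smallest of the 37. Ndufa2, an accessory subunit with a thioredoxin-like fold, rose 3.16-fold, from 45.1 and 40.7 to 60.8 and 55.8 and then 150.5 and 120.8 CPM. Ndufs4, which is needed to join the N module firmly to the rest of the enzyme, rose 3.20-fold, from 30.9 and 33.1 to 40.9 and 39.2 and then 115.6 and 89.2 CPM. Ndufv3, Ndufs6 and Ndufa6 lay between, at log2 2.12, 1.87 and 2.26 over the course. Across the 10 N-module members the median was log2 2.19, or 4.57-fold, and the range ran from 1.24 to 3.02.

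Ndufa12, an accessory N-module subunit, was the only member whose second step was called smaller than its first. It had 37.1 and 38.3 CPM at day 0, 107.2 and 99.6 at day 2, then 221.6 and 191.7 at day 6. The first 2 days brought log2 1.46 (SE 0.09), the largest first step of the 37, and the next 4 days log2 1.00 (SE 0.09). The difference between the steps was log2 -0.46 (SE 0.15; edgeR adjusted p = 0.0270).

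The Q module, where ubiquinone is reduced, was led by Ndufa9, an accessory subunit that binds a dinucleotide. Its levels were 35.6 and 37.5, then 66.5 and 62.5, then 301.0 and 257.8 CPM, a rise of 7.65-fold (log2 2.94, SE 0.10), of which the second step made up log2 2.12 (SE 0.09), the largest second step of the 37. Ndufs3, a core subunit, went from 44.4 and 43.7 to 77.04 and 69.96 and then 303.0 and 238.8 CPM (6.15-fold). Ndufs7, which carries the last cluster before ubiquinone, went from 46.0 and 47.5 to 88.6 and 79.1 and then 259.0 and 221.0 CPM (5.14-fold). Ndufa5, an accessory subunit, rose 5.16-fold. All of these were separate on all 3 days.

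Ndufs8 was the core subunit that did not follow the others at first. This carrier of 2 iron-sulphur clusters had 31.1 and 31.4 CPM at day 0 and 33.4 and 31.2 at day 2, so those days overlapped (log2 0.05, SE 0.09; edgeR adjusted p = 0.678). At day 6 it had 138.2 and 118.4 CPM. Its second step, log2 1.99 (SE 0.09), came close to that of Ndufa9, and the steps differed by log2 1.95 (SE 0.16; edgeR adjusted p = 1.9e-05), the largest such difference of the 37. By day 2 Ndufs8 had made 2.22% of its total log2 rise, against 27.9% for Ndufa9, 28.2% for Ndufs3, 35.8% for Ndufs7 and 37.4% for Ndufa5. The median of the 6 Q-module members over the course was log2 2.49, or 5.63-fold.

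Ndufs8 and Ndufv1 lie close together on chromosome 19 and on the same strand, at 19:3908863-3912774 and 19:4007384-4012806 (minus strand, GRCm38, GENCODE M21), yet only Ndufv1 rose in the first 2 days. The bases just before these genes are shown because the pair contrasts an early and a late course, and those of Ndufa10 because it had the second largest rise of the 37. All 3 are cut to lie before the start of the RefSeq transcript and of the GENCODE gene.
Ndufv1, chr19:4012807-4012926, minus strand: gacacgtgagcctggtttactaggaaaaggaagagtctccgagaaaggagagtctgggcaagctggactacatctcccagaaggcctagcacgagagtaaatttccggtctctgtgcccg
Ndufs8, chr19:3912775-3912894, minus strand: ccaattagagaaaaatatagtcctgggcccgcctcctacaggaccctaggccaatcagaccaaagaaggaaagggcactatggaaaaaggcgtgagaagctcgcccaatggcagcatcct
Ndufa10, chr1:92473861-92473980, minus strand: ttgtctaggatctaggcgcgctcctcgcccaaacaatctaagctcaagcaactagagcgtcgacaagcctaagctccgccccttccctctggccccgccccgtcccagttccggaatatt
Over these 120 bases the Ndufs8 sequence held 3 CpG dinucleotides, that of Ndufv1 5 and that of Ndufa10 9. The stretches end at the GENCODE start, which lies 0, 51 and 102 bases upstream of the RefSeq start in that order. The counts therefore come from unlike positions relative to the RefSeq start. None of the 3 stretches held a match to any motif searched. Because they stop before the start, a motif that lies after it could not be found in them.

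The motifs searched were those of regulators known to act on respiratory genes: TNAAGGTCA for the estrogen-related receptors, CGCATGCG for NRF1, CCGGAAGT for GABPA and AAGATGGCG for YY1, on both strands. RefSeq windows of GRCm38.p6, from 250 bases before to 50 bases after a start, were at hand for 33 of the members (35 windows) and for 32851 windows in all. The estrogen-related receptor motif was in 1 member window, of Ndufb4 (1.28% of all windows had it). NRF1's motif was in 2, of Ndufa8 and Ndufa11 (1.87% of all windows), and that of GABPA in 1, of Ndufs3 (3.89%). YY1's motif was in 5, of Ndufa9, Ndufc1, Ndufs4, Ndufs6 and Ndufs7 (1.40% of all windows), in each case 23 to 36 bases after the start. The matches in Ndufa11 and Ndufb4 are shown in capitals because they are those that lie more than 50 bases before the RefSeq start.
Ndufa11, chr17:56717692-56717761, plus strand: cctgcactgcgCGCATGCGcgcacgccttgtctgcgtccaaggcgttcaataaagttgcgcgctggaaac
Ndufb4, chr16:37654406-37654435, minus strand: ttcctgagccTGAAGGTCAgactcgagagg
GENCODE places the start of Ndufb4 85 bases further upstream than RefSeq does, so the match falls inside its first exon there. Over the course Ndufa11 rose 2.75-fold and Ndufb4 4.10-fold, both less than the median of the 37. Member windows were richer in G and C than the rest, with a median of 59% and 20 CpG dinucleotides against 52.7% and 7 over all windows.

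The ND1 module, which joins the arms of the enzyme, had the smallest median of the 6 modules at day 6 (log2 1.77), and 1 of its 3 members was called higher at day 2. Ndufa13, also known as GRIM-19, had 72.0 and 67.0 CPM at day 0 and 75.7 and 72.3 at day 2, with no overlap but no call (log2 0.09, SE 0.10; edgeR adjusted p = 0.425), and then 208.8 and 174.6 at day 6. Ndufa3, a small membrane subunit, had 62.5 and 68.5, then 76.12 and 69.96, then 242.2 and 203.0 CPM. Its first step was not called either (log2 0.16, SE 0.10; edgeR adjusted p = 0.198). Ndufa8, a twin-cysteine subunit on the outer face of the membrane, did rise early, from 65.6 and 67.5 to 132.6 and 122.0 CPM, and reached 294.5 and 263.3. Over the course these 3 rose 2.76-, 3.40- and 4.19-fold.

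In the ND2 module, Ndufa10, which has the fold of a nucleoside kinase, rose most. It had 47.4 and 46.2 CPM at day 0, 100.3 and 95.1 at day 2, then 413.6 and 335.3 at day 6, an 8.00-fold rise (log2 3.00, SE 0.11; edgeR adjusted p = 1.31e-07). Ndufa11, which bridges parts of the membrane arm, rose least there: 33.6 and 31.4, then 42.7 and 38.2, then 95.1 and 83.6 CPM, or 2.75-fold (log2 1.46, SE 0.09). Ndufc1, Ndufc2, Ndufa1 and Ndufs5 rose 5.82-, 5.72-, 5.27- and 4.52-fold. The median of the 6 was log2 2.46.

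The ND4 module had 5 members, all called higher in both steps, with a median of log2 2.52 over the course. Ndufb5 and Ndufb6 rose 6.48- and 6.10-fold, Ndufb10, with paired cysteines, 5.71-fold, and Ndufb4 and Ndufb11 4.10- and 3.99-fold. Ndufb10 had one of the larger first steps, from 43.7 and 40.2 to 102.8 and 94.2 CPM (log2 1.23, SE 0.11). In GENCODE M21, 39% of the exonic bases of Ndufb6 are also exonic in Smim27 on the other strand, and the labels do not state whether reads were counted by strand.

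The distal ND5 module had the highest median, log2 2.64, or 6.22-fold, over 6 members. Ndufab1, the mitochondrial acyl carrier protein, which also serves fatty acid and lipoic acid synthesis, had 39.5 and 41.6 CPM at day 0, 110.9 and 102.9 at day 2, then 326.2 and 279.5 at day 6 (7.47-fold; log2 2.90, SE 0.10). Its first step, log2 1.40 (SE 0.09), was second only to that of Ndufa12. Ndufb9, of the LYR protein family, went from 47.7 and 46.5 to 96.8 and 90.8 and then 390.2 and 300.0 CPM (7.33-fold; log2 2.87, SE 0.13). Ndufb8 and Ndufb3 rose 6.40- and 6.05-fold, and Ndufb7, which carries paired cysteines, 4.40-fold. In GENCODE M21, 19.5% of the exonic bases of Ndufb9 are shared with Gm49356 on the same strand.

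Ndufb2 was the exception in level and in course. It had 59 and 37 counts at day 0, 82 and 122 at day 2, then 105 and 89 at day 6, or 1.95 and 1.52, 2.79 and 4.39, and 4.69 and 4.44 CPM. The day 2 library of replicate 77 thus nearly reached the day 6 level. The rise by day 2 was 2.04-fold (log2 1.03, SE 0.27; edgeR adjusted p = 0.00942), and the second step was not called (log2 0.35, SE 0.25; edgeR adjusted p = 0.246). Without replicate 77 of day 2 the first step was log2 0.68 and was not called either (edgeR adjusted p = 0.0728). Its gene overlaps Braf, Gm16272 and Gm42420 over 7.94% of its exonic bases.

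Ndufa4 bears a complex I symbol but is counted today as a subunit of complex IV, cytochrome c oxidase. It had 69.98 and 73.28 CPM at day 0, 140.0 and 144.2 at day 2, then 432.1 and 363.6 at day 6. Its rise of 5.56-fold (log2 2.47, SE 0.10) lay close to the median of the 37. The similarly named Ndufa4l2, a paralogue induced by low oxygen in other cells and no member here, went the other way. It had 83.0 and 49.5 CPM at day 0, 24.2 and 17.3 at day 2, then 13.3 and 4.99 at day 6, and was lower at day 6 than at day 0 (log2 -2.84; edgeR adjusted p = 2.64e-04).

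**Figure D2:**
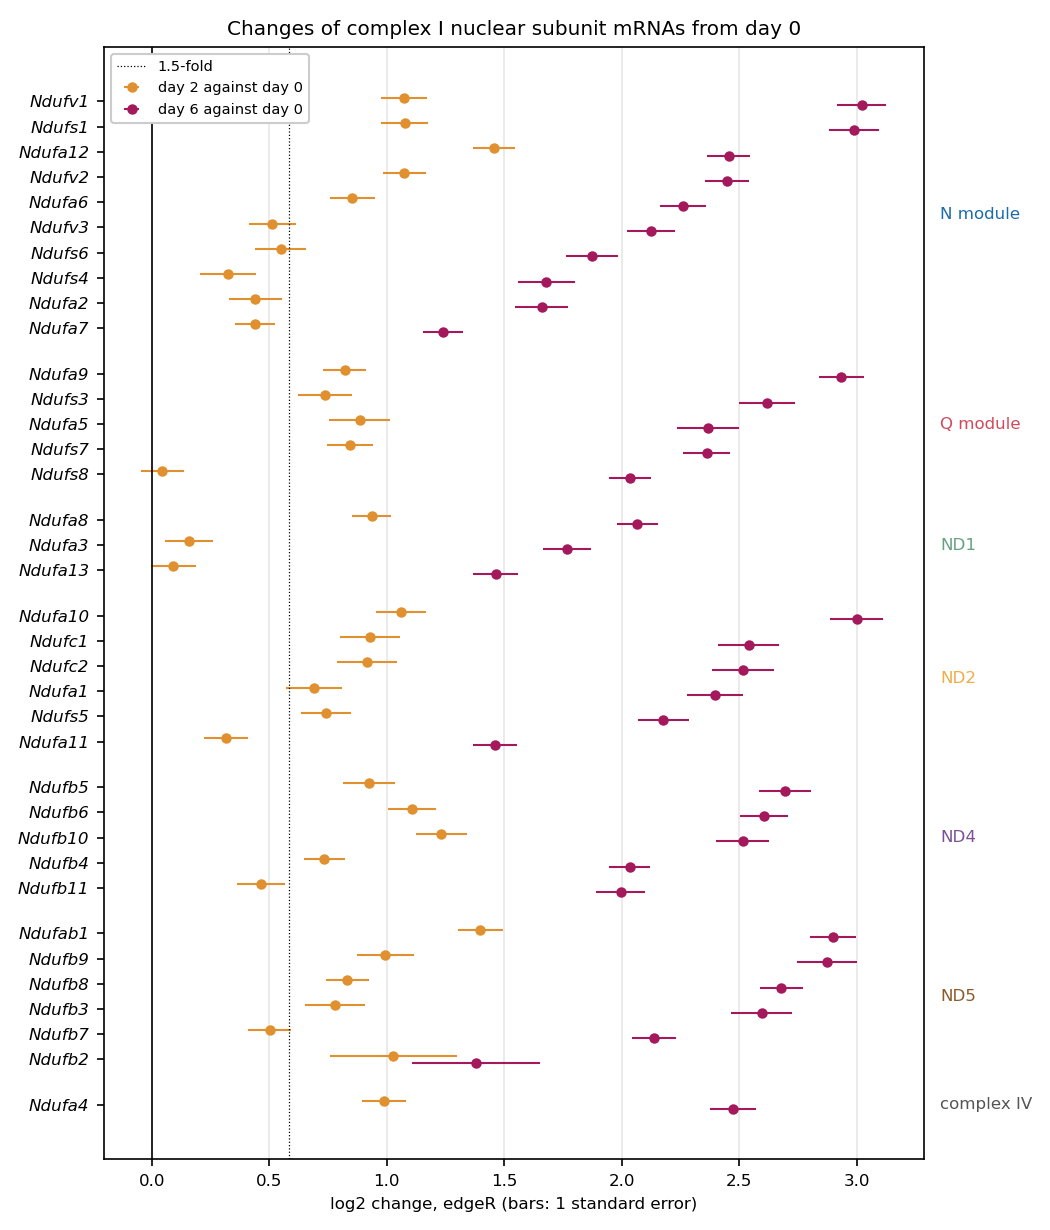
Log2 change of 36 of the members from day 0 to day 2 (orange) and from day 0 to day 6 (purple), from edgeR, with bars of 1 standard error; the dotted line marks 1.5-fold. At day 6 values run from 1.24 (Ndufa7) to 3.02 (Ndufv1), and at day 2 Ndufs8, Ndufa13 and Ndufa3 lie nearest to 0.

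Most members rose more in the second step than in the first, though the steps lasted 4 and 2 days. The steps were compared whole and not per day, so equal daily rates would also give a larger second step. The median second step was log2 1.52, against 0.83 for the first. The difference of the steps was called positive for 29 members (34.7% of all genes tested) and negative for 1, Ndufa12 (27.3% of all genes). The other 7, Ndufab1, Ndufb10, Ndufb6, Ndufv2, Ndufa8, Ndufb2 and Ndufa7, were not called. Besides Ndufs8, large positive differences were in Ndufa3 (log2 1.45, SE 0.18), Ndufa9 (1.29, SE 0.16) and Ndufa13 (1.28, SE 0.17), each called by edgeR. The number called either way was 30 with all libraries and lower without replicate 77 of day 0 or of day 2. Without replicate 77 of day 0, the median difference over all genes was log2 -0.09, against 0.18 with all libraries. The number of members called either way was 15 when libraries were scaled by their totals alone. Over all 14459 genes, 3407 were then called positive and 5761 negative, against 5022 and 3945 in the main fit. That scaling moved the median of all genes to log2 0.12 at day 2 and -0.26 at day 6, both against day 0.

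**Figure D3:**
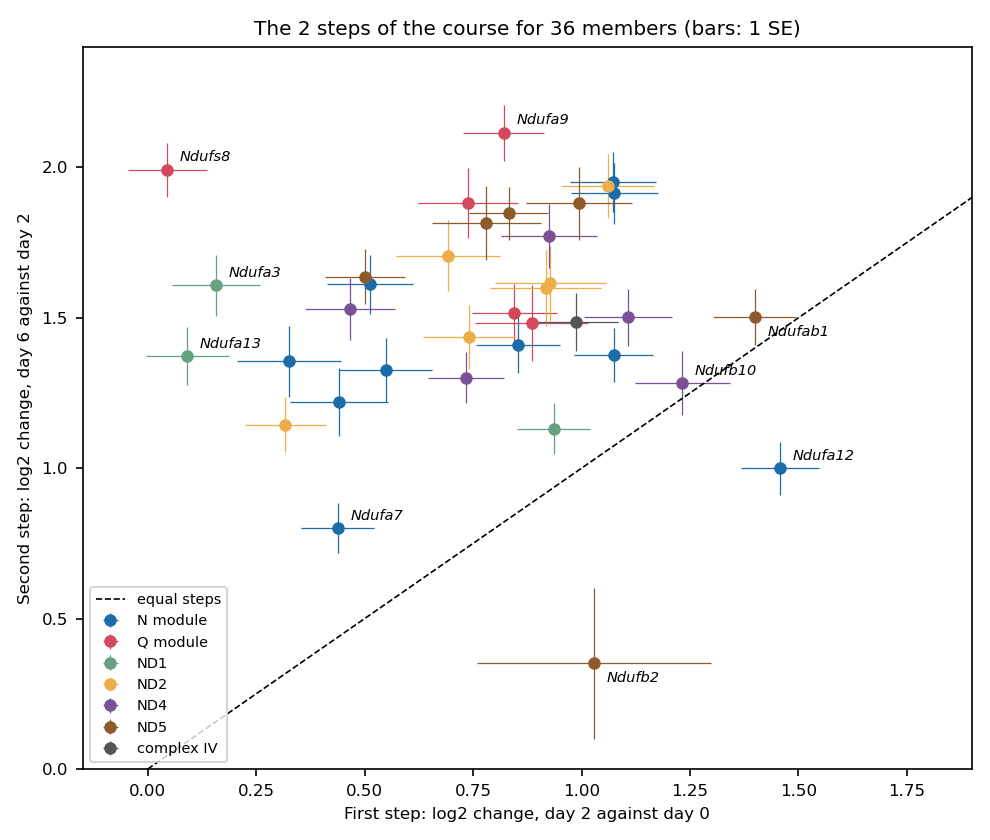
First step (day 2 against day 0) on the x axis and second step (day 6 against day 2) on the y axis for 36 of the members, both as log2 changes with bars of 1 standard error and coloured by module; the dashed line marks equal steps. Ndufa12 and Ndufb2 lie below the line, Ndufb10 and Ndufab1 near it, and Ndufs8 far above it at the left edge.

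Levels can be compared between genes only per length, so CPM was divided by mRNA length in kilobases. The median member had 42.1 CPM per kb at day 0, 75.5 at day 2 and 220.5 at day 6. The highest member was Ndufa3 at day 0 (127.1 ± 8.20, SD, n = 2) and Ndufa4 at day 2 (232.9) and day 6 (652.2 ± 79.4). The lowest was Ndufb2 on all 3 days, at 3.82 ± 0.67 on day 0 and 10.0 ± 0.39 on day 6. Next lowest was Ndufs4, at 18.9 ± 0.92 on day 0 and 60.3 ± 10.99 on day 6. The neighbours of Ndufs4 in the order at day 0 were Ndufs1 at 19.4 ± 0.74 and Ndufb5 at 20.7 ± 0.25, of which only Ndufs1 lay within the spread of Ndufs4.

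The order of the members was largely kept while all of them rose. Across the 37, log2 CPM per kb at day 0 and at day 6 had a Pearson's r of 0.88 and a Spearman's rho of 0.83, over genes that share libraries and are not independent. The spread among the 37 (SD of log2 CPM per kb) was 0.96 at day 0 and 1.01 at day 6, and without Ndufb2 it was 0.77 and 0.70, so its direction rests on that gene. Upward in rank, Ndufv1 (20 to 10) and Ndufab1 (30 to 20) moved furthest, and downward Ndufa7 (3 to 17), Ndufa11 (14 to 27) and Ndufa13 (17 to 30). Ndufb2 and Ndufs4 kept their places at the bottom.

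The share of each module in the summed CPM per kb shifted accordingly. That of the Q module was 14.5% and 14.8% at day 0, 14.5% and 14.1% at day 2, then 17.2% and 17.4% at day 6. The ND5 module went from 11.9% and 12.2% to 13.3% and 13.4% and then 15.4% and 15.1%. The ND1 module fell in share, from 13.6% and 14.03% to 11.13% and 10.95% and then 9.72% and 10.1%, and the N module held 24.96% and 24.35% at day 0 and 21.4% and 21.5% at day 6. The ND4 module held 11.40% and 11.48% at day 0, 12.52% and 12.50% at day 2 and 11.69% in both libraries of day 6. In each of these 5 modules the libraries of day 0 and day 6 did not overlap. They did overlap in the ND2 module, at 17.1% ± 0.47 (SD, n = 2) on day 0 and 17.3% ± 0.43 on day 6. The 7 core subunits rose by a median of log2 2.62 over the course and the 29 supernumerary ones by 2.26, with all 36 called higher.

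By the transcript length used here, longer mRNAs among the members tended to rise more. The 9 members of 1400 bases or more had a median of log2 2.90 at day 6 against day 0, the 19 from 600 to under 1400 bases 2.47, and the 9 under 600 bases 1.77. Across the 37 members the change had a Pearson's r of 0.48 and a Spearman's rho of 0.50 with log2 length. Over 43 nuclear subunits of complexes II to V the same values were -0.06 and 0.08, and over 13797 tested genes with a length -0.12 and -0.14. The exceptions among long mRNAs were Ndufs4 and Ndufv3, at log2 1.68 and 2.12, and among short ones Ndufa1, at 2.40 for 419 bases. GC content of the mRNA had an r of -0.34 with the change over the members. These are descriptions across genes that share their libraries. They also rest on the transcript chosen for each gene. Ndufb2, taken as 455 bases, also has a principal transcript of 4371 bases, and Ndufab1, taken as 1416, has another of 3479. Values with other choices of length are not given here.

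**Figure D4:**
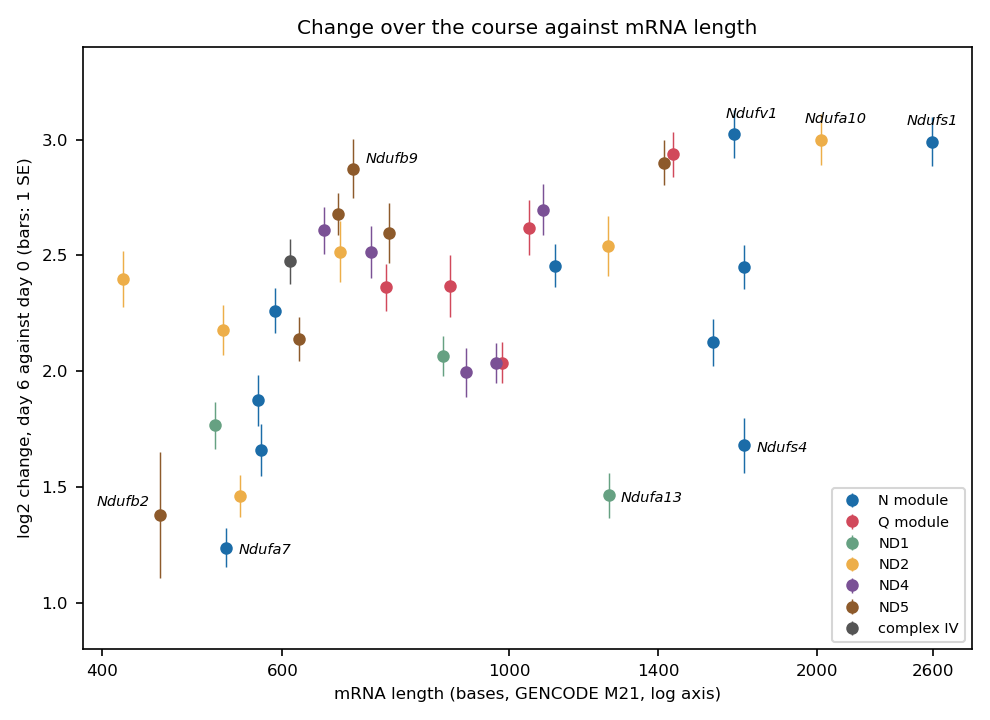
Log2 change from day 0 to day 6 (y axis, edgeR, bars of 1 standard error) against mRNA length in bases (x axis, log scale, GENCODE M21) for 36 of the members, coloured by module. By the transcript used for each gene, the members with the largest changes, Ndufv1, Ndufa10 and Ndufs1, are among the longest, and Ndufa7 and Ndufb2 are among the shortest.

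The complex I subunits encoded in the mitochondrial genome rose as well, with larger medians than the nuclear ones. Of 7, 6 were tested and all 6 were higher at day 2 and at day 6 by edgeR, with medians of log2 1.36 and 3.34; mt-Nd4l was listed at 0 in all 6 libraries. Of their 50-base stretches, 98.8% for mt-Nd4l, 98% for mt-Nd3 and 62.2% for mt-Nd4 also occur in an annotated unprocessed pseudogene, and the part of reads that were not unique in these levels was not tested. Mt-Nd2, a proton-pumping subunit, had 241.4 and 257.1 CPM at day 0, 801.5 and 910.1 at day 2, then 4305 and 3119 at day 6 (log2 3.90, SE 0.17). Mt-Nd5, at the far end of the membrane arm, rose least of the 6, by log2 2.47 (SE 0.14). The ratio of the summed nuclear members to the summed mitochondrial subunits was 0.939 and 0.879 at day 0, 0.679 and 0.572 at day 2, then 0.469 and 0.517 at day 6, with no overlap between days. An exact two-sided permutation test of 2 against 2 libraries cannot go below p = 0.333, which these ratios reached. Libraries were made from polyadenylated RNA, and mitochondrial mRNAs carry short tails, so the ratio describes these libraries rather than molecules.

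Nuclear subunits of the other complexes rose as well, and their order relative to complex I differed. All 4 of complex II (succinate dehydrogenase) were higher at day 6 than at day 0, with a median of log2 2.74, as were all 9 of complex III (the cytochrome bc1 complex), with 2.97, and all 15 of complex V (ATP synthase), with 2.38. Of 16 complex IV genes, 14 were higher and 2, the isoforms Cox4i2 and Cox6a2, were lower, with a median of 2.50. The members' summed CPM over that of complexes II to V was 0.366 and 0.367 at day 0, 0.337 and 0.342 at day 2, then 0.316 and 0.316 at day 6. Against complex III alone the ratio went from 2.77 and 2.80 to 2.21 and 2.30 and then 1.73 and 1.77. Neither ratio overlapped between days. The exact permutation p was 0.333, the smallest possible with 2 against 2 libraries, so that test cannot show a difference. Uqcrfs1, the Rieske iron-sulphur protein of complex III, rose by log2 4.09 (SE 0.11) over the course, more than any complex I member.

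The ratio to complex IV took another course. It was 1.332 and 1.335 at day 0 and higher, 1.398 and 1.428, at day 2 (exact permutation p = 0.333, the smallest possible). At day 6 it was 1.335 and 1.381, and the lower of these did not stand clear of day 0 (exact permutation p = 0.667). The members' sum includes Ndufa4, counted today with complex IV, at 71.6, 142.1 and 397.9 CPM on average on the 3 days. The sums of complex IV and of complexes II to V leave that gene out. Ratios with Ndufa4 moved to complex IV were not computed. Over complex V the ratio was 0.733 and 0.736 at day 0, 0.652 and 0.657 at day 2, then 0.662 and 0.648 at day 6, lower on both later days than at day 0. Enzymes that deliver electrons to ubiquinone without complex I rose in all 6 cases tested, by a median of log2 3.37. Among them Etfdh, which takes electrons from fatty acid oxidation, rose by log2 3.75 (SE 0.11), and Gpd2, of the glycerol phosphate shuttle, by 2.99 (SE 0.22). Dhodh, of pyrimidine synthesis, rose by 1.05 (SE 0.12).

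**Figure D5:**
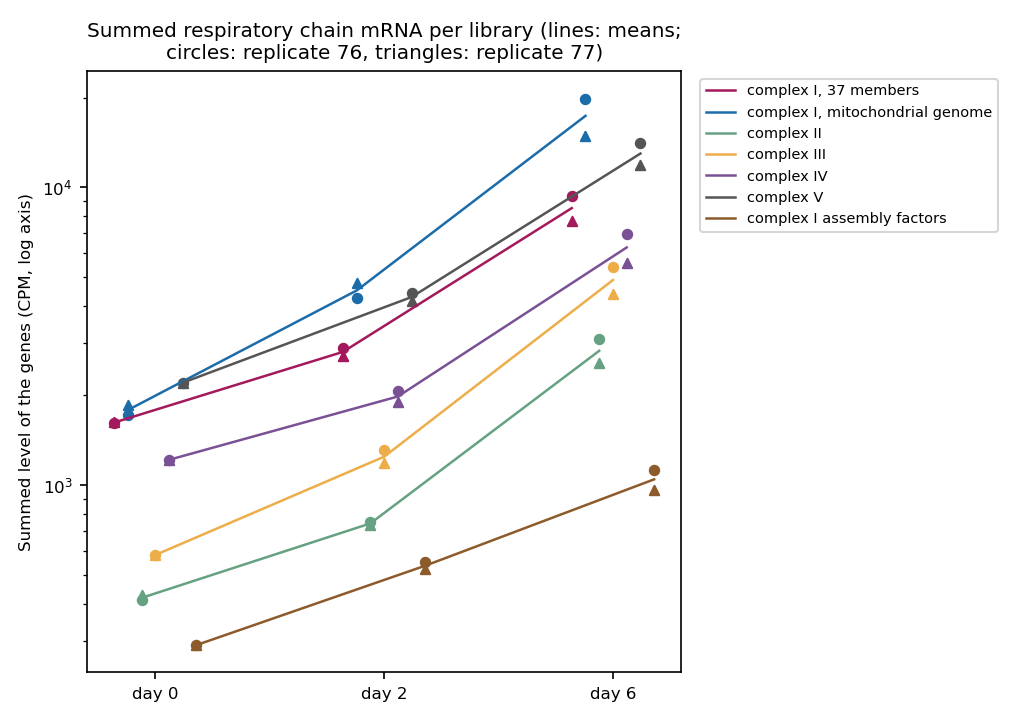
Summed CPM per library (log y axis) of the 37 members, the mitochondrially encoded complex I subunits, the nuclear subunits of complexes II to V and the complex I assembly factors, by day; circles are replicate 76, triangles replicate 77, and lines join the means of 2 libraries. The 37 members run from 1620 to 8508 on average and the assembly factors from 290 to 1045.

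Factors that assemble complex I but are absent from the finished enzyme rose too, with a smaller median at day 6 than its subunits. Of 19, 14 were higher and 1 lower at day 2, and all 19 were higher at day 6 by edgeR, with medians of log2 0.85 and 1.55. The factor that fell first was Ndufaf3, which acts in assembly of the Q module, from 8.84 and 9.97 to 5.13 and 5.50 CPM (log2 -0.82, SE 0.12; edgeR adjusted p = 3.81e-04). By day 6 it had 24.3 and 24.9 CPM. Foxred1, an oxidoreductase-like factor, rose most, from 19.6 and 18.2 to 139.7 and 110.1 CPM (log2 2.72, SE 0.13). Aifm1, needed for import of small subunits, rose by log2 2.44 (SE 0.10). The summed members over the summed factors were 5.56 and 5.61 at day 0, 5.24 and 5.21 at day 2, then 8.27 and 7.99 at day 6.

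Regulators known to act on nuclear respiratory genes went in both directions. Ppargc1a, which encodes the coactivator PGC-1 alpha named in the series' title, had 0.894 and 0.700 CPM at day 0, 5.20 and 5.43 at day 2, then 47.7 and 39.6 at day 6 (log2 5.75, SE 0.17 at day 6). Its relative Ppargc1b rose mostly in the first step, from 0.861 and 0.906 to 31.2 and 24.9 and then 46.8 and 47.0 CPM. Esrra, the estrogen-related receptor alpha, rose by log2 2.20 (SE 0.11) over the course. Tfam, which packages and transcribes mitochondrial DNA, rose by 0.80 (SE 0.08), and Gabpa by 0.45 (SE 0.07). Lower at day 6 than at day 0 were Pprc1 (log2 -1.32, SE 0.13), Gabpb1 (-0.62, SE 0.11), Nrf1 (-0.42, SE 0.10) and Yy1 (-0.19, SE 0.07; edgeR adjusted p = 0.0283). Esrrb and Esrrg were too low to test.

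The 2 libraries of day 6 differed in the same direction for every member. Replicate 76 was above replicate 77 for 37 of 37 members at day 6, with a median log2 ratio of 0.26, for 35 at day 2 (0.09) and for 15 at day 0 (-0.02). Over all genes tested the same median at day 6 was -0.01, and 48.4% were higher in 76. The summed adipocyte markers went the same way at day 6, with 32910 CPM in replicate 76 and 27240 in 77, and the members' sum divided by theirs was 0.283 in both. Of these sums Fabp4 alone made up 20320 and 15950 CPM, so the ratio rests mostly on that gene. The ratio without Fabp4 was not computed. The macrophage markers went that way too, at 129.9 and 55.1 CPM, as did the mural, skeletal muscle and Schwann cell sums by smaller amounts. The endothelial markers went the other way, at 12.6 and 16.0 CPM. The spread of day 6 levels given above therefore runs through all members together, and was not independent between them.

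Markers of other cell types in the fraction moved along the course too. The summed adipocyte markers were 309.6 and 381.9 CPM at day 0, 5191 and 4634 at day 2, then 32910 and 27240 at day 6, when most of it was Fabp4. All 7 of those tested were higher on both later days (Lep was listed at 0 before day 6). Of 10 macrophage markers 6 were higher at day 6 than at day 0, with sums of 43.6 to 49.7 CPM at day 0, 30.7 to 56.5 at day 2 and 55.1 to 129.9 at day 6, most of it Lyz2. All 6 endothelial markers tested of 8 were lower at day 6, with sums of 31.1 to 35.9 CPM at day 0, 6.65 to 6.94 at day 2 and 12.6 to 16.0 at day 6. Of 7 mural cell markers 3 were higher and 4 lower, with sums of 136.7 to 151.7, 55.8 to 60.0 and 217.6 to 224.8 CPM on the 3 days. Of 8 skeletal muscle markers 3 were tested and 2 were lower, with sums of 27.7 to 39.0, 2.81 to 9.89 and 9.93 to 11.1 CPM, and Ckm was at 0 on days 0 and 6. Of 5 Schwann cell markers 4 were tested, with 1 higher and 1 lower and sums of 8.98 to 9.77, 1.73 to 2.75 and 24.5 to 30.7 CPM. The part of these cell types in the changes of complex I mRNA was not tested.

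Some counts may share reads with other genes, since the counting rule for such reads is known only in part. Of the 50-base stretches in annotated transcripts, 17.7% of those of Ndufa12, 18.3% for Ndufb4 and 21.7% for Ndufs5 also occur in processed pseudogenes. For Ndufs3 17.9% occur in processed pseudogenes or Kbtbd4, and for Ndufb11 17.5% in a processed pseudogene or Rbm10. For Ndufa13, 30% of the exonic bases overlap Tssk6 on the other strand.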

How the data were processed

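Polyadenylated RNA of 6 libraries (3 days, 2 each) was measured. The deposited values are raw read counts per gene, although the column names say RPKM: they are whole numbers and each column ends in the 5 summary lines HTSeq writes. Per the submitters' processing notes, the authors used TopHat2 2.0.13 for alignment and HTSeq 0.9.1 for counting, on mm10 (GRCm38). For the annotation, strand and other settings: not given in the sources used here. Summary lines stayed out of all sizes and tests. They held 2.62% to 3.23% (outside features), 4.40% to 4.91% (ambiguous) and 4.16% to 9.05% (not unique) of counted alignments. The share not unique went up with the days: 4.42% and 4.16%, then 6.21% and 6.65%, then 9.05% and 7.50%. Its part in the changes was not tested.

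All genes were fitted together with edgeR 4.0.16, quasi-likelihood F test (R 4.3.3; TMM, filterByExpr, a mean per day, 3 residual degrees of freedom, Benjamini-Hochberg over 14459 genes, threshold 0.05; 31349 genes untested), with glmTreat for changes beyond 1.5-fold. The fitting procedure was also tested on simulated counts with known changes. Standard errors are the log2 change over the root of F. They pool the spread over the 3 days, although day 6 varied most (chi-square per degree of freedom 26.3, against 6.75 and 7.53). For changes to day 6 they may therefore be too small. DESeq2 1.42.0, other scalings, no filter, each library left out and a replicate block were the alternatives. Lengths are of the best-supported, then shortest, principal transcript in GENCODE M21; promoter windows are RefSeq's. The members, gene lists and motifs were chosen with earlier results of these data known.

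Full values were given for the 6 members with the largest and the 6 with the smallest change at day 6 against day 0, the core subunits and members not called or called against the majority. From other lists, the 2 highest and 2 lowest, or any gene of lists of 11 or fewer, could be named. Ndufaf3, the 1 assembly factor that fell at day 2, was named after its values were seen, and some lists are given by counts alone. The values of 1 member are not reported here and it is not drawn in the plots of single members; counts, sums and medians over the members include it.

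The numbers 76 and 77 were checked for pairing. Deviations from the day means of same-numbered libraries correlated across genes with Pearson's r of 0.109 (days 0 and 2), 0.112 (days 0 and 6) and 0.213 (days 2 and 6), all over the limit of 0.1, which by that rule pairs them, although no label says what a number stands for. Spearman's rho was 0.0589, 0.0546 and 0.176 in the same order, under 0.1 for both pairs with day 0, so the pairing is weak. Within each day the libraries' counts varied beyond sampling noise (chi-square per degree of freedom 6.75, 7.53 and 26.3), so each was counted once.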

Additional observations from a re-analysis of the deposited data

How the results depend on the processing

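The direction of every member over the whole course held under all alternatives run (DESeq2, DESeq2 size factors in edgeR, library totals, no filter on low counts, a replicate block and each library left out). The fit with the replicate number as a block, which uses the pairing of 76 and 77, changed no call of a member. In it 34 members were higher at day 2 and 37 at day 6, both against day 0. Of all 14459 genes, 4906 and 5214 were higher in that fit. DESeq2 put 12 members beyond 1.5-fold at day 2, against 19 by edgeR. Of all 14459 genes it put 1755 higher beyond 1.5-fold at day 2, against 2320 by edgeR. With library totals alone the median changes were log2 0.94 (day 2 against day 0), 2.15 (day 6 against day 0) and 1.16 (day 6 against day 2). The summed CPM was then 1672 at day 0 and 3121 at day 2. Steps were called unequal for 15 members, and over all genes for 3407 upward and 5761 downward. Ndufa3 was then called higher at day 2 (edgeR adjusted p = 0.0353). The second step of Ndufb2 turned to log2 -0.0073 (edgeR adjusted p = 0.981). The cause was not tested.

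With 1 library left out in turn, the members had medians of log2 0.78 to 1.01 (day 2 against day 0). The medians were 2.25 to 2.57 (day 6 against day 0) and 1.38 to 1.66 (day 6 against day 2). Without replicate 77 of day 0, where the first of these was 1.01, the median of all genes was log2 0.14 at day 2. Unequal steps were called for 15 to 33 members. A lone library of a day is then assumed to vary like the other days. The calls lost at day 2 were those of Ndufs4 without replicate 76 of day 0 (adjusted p = 0.185), 76 of day 2 (0.148) or 77 of day 2 (0.0847), of Ndufa11 and Ndufa2 without replicate 76 of day 2 (0.110 and 0.0602) and of Ndufb2 without replicate 77 of day 2 (0.0728). Ndufb2 had the fewest counts of the members, 37 to 122 per library.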
